A study of Mus musculus with 18 samples.

Results

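The 80 genes described here encode the nuclear subunits of the mitochondrial oxidative phosphorylation complexes. They were chosen by a pattern on the whole gene symbol, set with earlier results of these data known. It takes symbols used for subunits of complexes I to V that occur in both deposited expression tables, and leaves out Ndufa4l2. They are 80 of the 15864 symbols found in both tables. By complex they are 35 genes of complex I, 4 of complex II, 9 of complex III, 15 of complex IV and 15 of complex V. The symbol pattern also takes in Atp5s and Atp5sl, which are not counted to any complex here. Cox7b2, Cox8b and Cox8c were listed in the table of experiment 1 only, and Cox7a1 and Ndufb8 under their own symbols in that of experiment 2 only, so these are not among the 80.

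RNA was measured in mouse CD4+ T cells that had been sorted as naive cells from C57BL/6 spleens, stimulated through CD3 and CD28, and collected on day 4. In experiment 1 the cells carried Cd4Cre alone (WT) or Cd4Cre with floxed Egln1, Egln2 and Egln3 (tKO), and were cultured with 0, 0.2 or 2 ng/ml TGF-b. In experiment 2 wild-type cells at 2 ng/ml TGF-b received vehicle or 1 mM dimethyloxaloylglycine (DMOG), a general inhibitor of 2-oxoglutarate-dependent dioxygenases. Each of the 6 groups of experiment 1 has 2 libraries and each of the 2 groups of experiment 2 has 3. All cells of experiment 1 carried Cd4Cre, a recombinase known to act from thymic development onward, so that in tKO deletion is set up to precede the naive stage. Egln1, Egln2 and Egln3 encode the PHD enzymes, which mark the transcription factor HIF for degradation when oxygen is present. The labels do not say whether the libraries of a group came from separate animals, so p-values measure only the spread between these libraries.

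Complex I (NADH dehydrogenase) and complex II (succinate dehydrogenase) pass electrons to ubiquinone, complex III passes them to cytochrome c, and complex IV reduces oxygen. Complex V, the ATP synthase, uses the resulting proton gradient. Each complex has a core that carries the cofactors or catalytic sites and accessory subunits around it, and some subunits of complexes IV and V exist as paralogues from separate genes. HIF is known to replace the complex IV subunit Cox4i1 by Cox4i2 in part, to raise the protease Lonp1, and to divert pyruvate from mitochondria through Pdk1, and activated T cells are known to raise both glycolysis and respiration.

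The deposited values are FPKM, which are fragments scaled to transcript length and to sequencing depth, so a level per length, and their depth is unknown. FPKM summed over symbols ran from 521172 to 834683 per library in experiment 1, with the highest in tKO at 0.2 ng/ml, replicate 2, and the lowest in the tKO libraries at 2 ng/ml. The T cell marker list summed to between 2460 and 3611 FPKM in experiment 1, and B cell, CD8 T cell, myeloid, NK and erythroid lists to at most 87.1 FPKM. The dendritic cell list, which includes MHC class II genes, summed to 309 to 1079 FPKM in WT and 1006 to 1419 FPKM in tKO. Egln1 read 92.8 to 122 FPKM in tKO against 20.4 to 44.3 in WT, Egln3 77.4 to 140 against 5.68 to 18.7, and Egln2 19.9 to 39.0 against 35.6 to 48.8. These values cover the whole gene and do not show whether the floxed part is gone, so WT and tKO stand for the libraries labelled so. Y-linked genes summed to between 60.5 and 67.6 FPKM in the 3 tKO libraries of replicate 1 and to at most 0.0080 FPKM in every other library of experiment 1. Xist read at most 0.0531 FPKM in those 3 libraries, 2.24 to 5.16 FPKM in tKO replicate 2 and 1.04 to 4.30 FPKM in WT. By these genes the 2 tKO series came from animals of different sex, which the labels do not give. The part of sex in the differences between libraries was not tested.

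The subunit genes were abundant. Their median level was 260 FPKM in experiment 1, where 70 of the 80 averaged 100 FPKM or more, and 89.3 FPKM in experiment 2, where 29 did. The tables were normalized separately, so levels are not compared between them. In experiment 1 the highest mean levels were those of Cox6a1 at 1211 FPKM in complex IV, Atp5b, the catalytic beta subunit of ATP synthase, at 1033 FPKM in complex V, Ndufa3 at 673 FPKM in complex I, Uqcrb at 547 FPKM in complex III and Sdhb at 278 FPKM in complex II. In experiment 2 the leaders were Atp5b at 553 FPKM, Cox4i1 at 395 FPKM, Uqcrh at 262 FPKM, Ndufb7 at 97.5 FPKM and Sdha at 95.3 FPKM. Paralogues stood far apart: Cox6a2, the heart and muscle form, was listed at 0 in 9 of the 12 libraries of experiment 1 and reached at most 0.358 FPKM, and Cox6b2, the testis form, had at most 9.48 FPKM against at least 337 FPKM for Cox6b1. The tests took symbols whose mean over the libraries of a table reached 1 FPKM, which kept 79 of the 80 in experiment 1 (all but Cox6a2) and 76 in experiment 2 (all but Cox4i2, Cox6a2, Cox6b2 and Atp5s).

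Averaged over the 3 doses, 3 of the 79 tested symbols were higher in tKO (Cox4i2, Ndufv3 and Cox6b2) and 4 were lower (Ndufa6, Ndufa4, Cox7a2l and Ndufb11), with an adjusted p under 0.05 by limma with Benjamini-Hochberg adjustment over all symbols tested. Of all 10354 symbols tested 27.2% passed, 13.9% higher and 13.3% lower. Under quantile normalization 13.5% of all symbols were higher and 16% lower. The median difference of the 79 was -0.04 on the log2(FPKM + 1) scale, and that of all symbols was -0.02. All differences below are on this scale, which understates those of low genes. Libraries of a series that share a label across doses were treated as independent here, which may overstate certainty. Libraries of 1 labelled series were also left out at all doses together. Without series tKO1, 16 symbols were higher and 3 lower. Without series tKO2, 3 were higher and 24 lower, without either WT series 3 were higher and none lower, and under quantile normalization 3 were higher and 25 lower. Without tKO at 0.2 ng/ml, replicate 1, 9 were higher and 5 lower, and without replicate 2 of that group 3 were higher and 17 lower. Ndufv3 and Cox6b2 passed in all of these runs. So did Cox4i2, but it reached the filter on low values only through the tKO libraries, so its passing is no separate support.

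Cox4i2 encodes the subunit 4 isoform of complex IV that is known as the hypoxia-responsive form. Its gene is at chr2:152579908-152590773 (mm9, as listed in the deposited table). In WT it read 0.105 and 0 FPKM at 0 ng/ml, 0 and 0.300 FPKM at 0.2 ng/ml, and 0 in both libraries at 2 ng/ml TGF-b. In tKO it read 1.57 and 1.51 FPKM at 0 ng/ml, 4.5 and 7.91 FPKM at 0.2 ng/ml, and 2.94 and 3.47 FPKM at 2 ng/ml. All 6 tKO libraries were above all 6 WT libraries, and a value of 0 in these tables can be a failed estimate. The difference over doses was 1.99 ± 0.20 (SE, adjusted p = 6.69e-06 by limma), and the gene passed the filter on low values only through the tKO libraries. In experiment 2 it was listed at 0 in the 3 vehicle libraries and read 0.926, 0.800 and 1.23 FPKM in the 3 DMOG libraries; it was not tested there.

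Cox4i1, the general isoform of the same subunit, at chr8:123192189-123198109 (mm9), was not called higher in tKO at any dose. It read 599 and 710 FPKM in WT and 697 and 866 FPKM in tKO at 0 ng/ml, and 821 and 766 FPKM in WT against 410 and 396 FPKM in tKO at 2 ng/ml. At 0.2 ng/ml it read 702 and 623 FPKM in WT and 700 and 1122 FPKM in tKO. The groups overlapped at 0 and 0.2 ng/ml, and at 2 ng/ml tKO was below WT, where the difference was -0.97 ± 0.21 (adjusted p = 0.0069 by limma). With DMOG its 3 libraries read 358, 391 and 383 FPKM against 386, 422 and 431 FPKM with vehicle, and the difference of -0.13 did not pass. Even where Cox4i2 was highest it was a small part of subunit 4 transcripts, at 0.70% of the summed FPKM of both isoforms in tKO at 0.2 ng/ml, replicate 2, and 0.869% in tKO at 2 ng/ml, replicate 2. With DMOG the share ran from 0.204% to 0.320%.

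Ndufv3, an accessory subunit of the NADH-binding module of complex I, at chr17:31657059-31668270 (mm9), was higher in tKO. It read 246 and 299 FPKM in WT and 439 and 546 FPKM in tKO at 0 ng/ml, 215 and 205 against 432 and 688 FPKM at 0.2 ng/ml, and 231 and 212 against 277 and 259 FPKM at 2 ng/ml. The groups did not overlap at any dose. The difference passed at 0 ng/ml (0.85 ± 0.21, adjusted p = 0.0188 by limma) and at 0.2 ng/ml (1.38 ± 0.21, adjusted p = 0.000576), but not at 2 ng/ml (0.27). In experiment 2 Ndufv3 rose from 63.8, 59.3 and 60.9 FPKM with vehicle to 92.7, 99.7 and 96.9 FPKM with DMOG (0.64 ± 0.10, adjusted p = 4.92e-05). Its symbol has 2 entries in that table; the larger went from 52.5 ± 1.33 to 86.7 ± 3.73 FPKM (SD, n = 3) and the smaller from 8.79 ± 0.94 to 9.72 ± 0.22 FPKM.

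Cox6b2, a paralogue of the complex IV subunit Cox6b1, was low in all libraries. In WT it read 3.39 and 4.03, 3.18 and 1.68, and 1.66 and 0.800 FPKM at 0, 0.2 and 2 ng/ml, and in tKO 6.76 and 9.48, 5.81 and 9.06, and 3.90 and 3.90 FPKM. At each dose the tKO libraries were above WT, with a difference over doses of 1.14 ± 0.19 (adjusted p = 0.000633 by limma). DMOG did not move it that way: the 3 libraries read 0.259, 0.241 and 0.0719 FPKM against 0.587, 0.361 and 0.490 FPKM with vehicle, values under the filter and not tested.

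**Figure D1:**
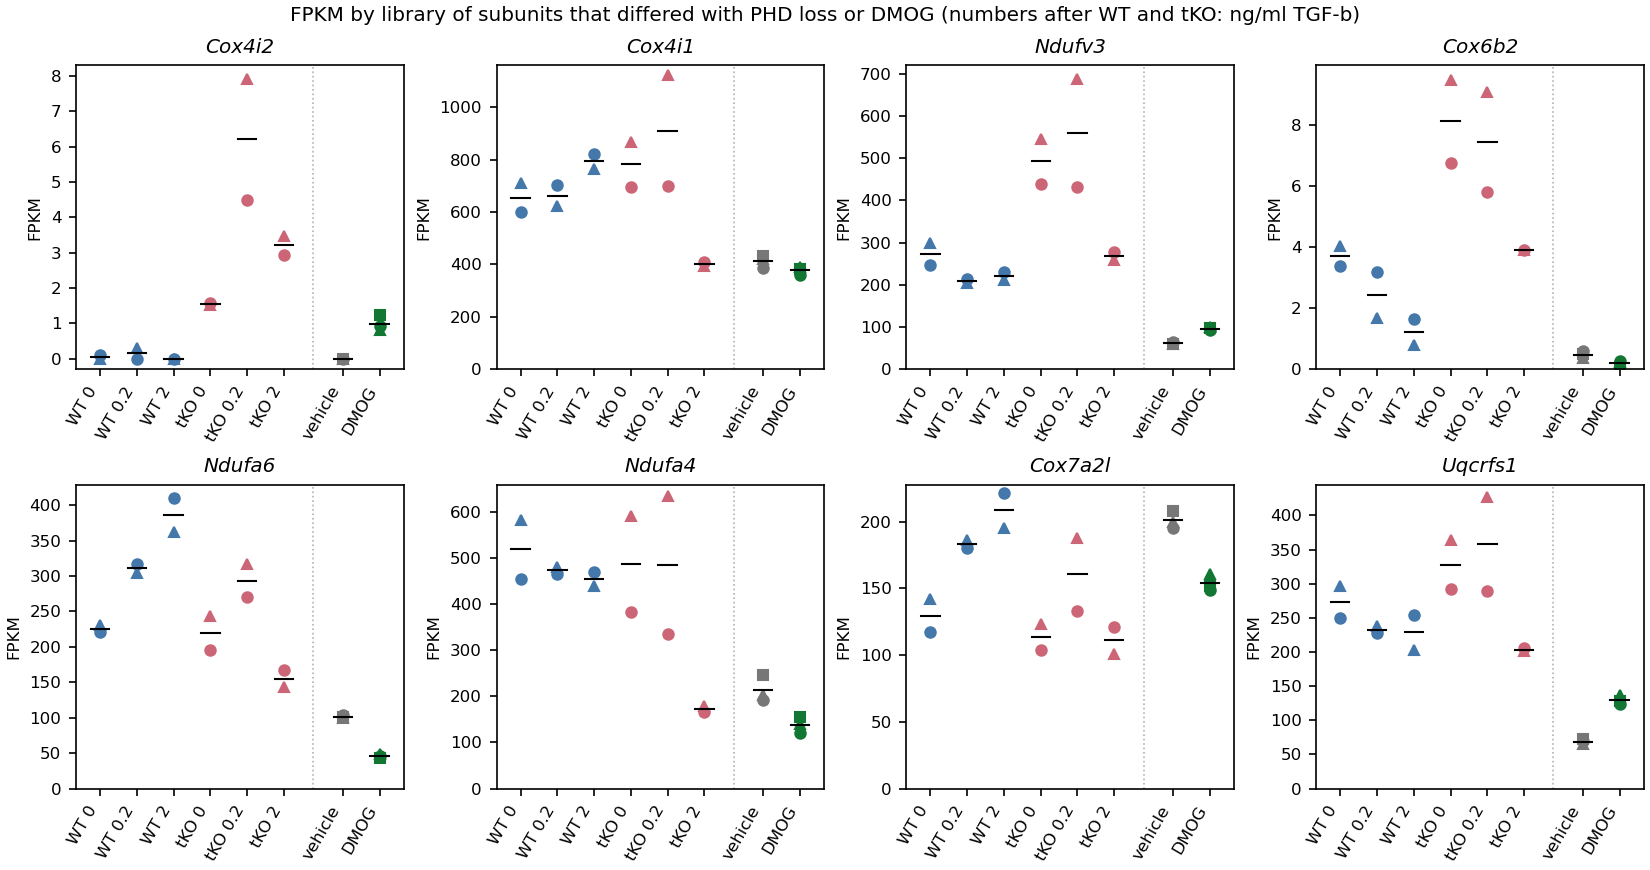
FPKM of 8 subunit genes in each library, with WT and tKO by TGF-b dose in ng/ml on the left of the dotted line and experiment 2 on the right. Circles, triangles and squares are replicates 1, 2 and 3 and bars are group means. Cox4i2 is near 0 in WT and vehicle and between 1.51 and 7.91 FPKM in tKO, while Ndufa6, Ndufa4 and Cox7a2l are lower in tKO than in WT at 2 ng/ml and lower with DMOG than with vehicle.

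Ndufa6, an accessory subunit of complex I of the LYR motif family, at chr15:82180568-82184721 (mm9), rose with TGF-b in WT. In WT it read 221 and 231 FPKM at 0 ng/ml, 317 and 305 FPKM at 0.2 ng/ml, and 411 and 362 FPKM at 2 ng/ml. In tKO it read 196 and 243, 270 and 317, and 167 and 143 FPKM. The genotypes overlapped at 0 and 0.2 ng/ml and stood apart at 2 ng/ml. The WT increase from 0 to 2 ng/ml was 0.77 ± 0.17 (adjusted p = 0.00711 by limma), the genotype difference at 2 ng/ml was -1.31 ± 0.17 (adjusted p = 0.000166), and the test of whether the dose effect differed between genotypes gave -1.27 ± 0.23 (adjusted p = 0.0123). With the trend over transcript length removed this last value was -0.49 and did not pass. With DMOG Ndufa6 fell from 104, 99.2 and 101 FPKM to 45.4, 48.7 and 43.7 FPKM (-1.13 ± 0.11, adjusted p = 7.62e-08), the smallest p of any of the 76 symbols tested in experiment 2.

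Cox7a2l, known as a factor of supercomplexes of complexes III and IV, at chr17:83901256-83913673 (mm9), had a like pattern. RNA values do not show whether its protein has this role in these cells. It read 117 and 142, 180 and 186, and 222 and 195 FPKM in WT at 0, 0.2 and 2 ng/ml, and 104 and 123, 133 and 188, and 121 and 101 FPKM in tKO. The WT increase to 2 ng/ml was 0.69 ± 0.19 (adjusted p = 0.0291 by limma) and the genotype difference at 2 ng/ml -0.91 ± 0.19 (adjusted p = 0.00641). The difference between the dose effects, -0.72, did not pass. With DMOG it fell from 196, 200 and 208 FPKM to 149, 161 and 152 FPKM (-0.39 ± 0.10, adjusted p = 0.00403).

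Ndufa4, a subunit first assigned to complex I and now to complex IV, at chr6:11850372-11857446 (mm9), was level over doses in WT, with 453 and 583, 465 and 481, and 470 and 439 FPKM. In tKO it read 383 and 590, 335 and 633, and 167 and 179 FPKM. The groups overlapped at 0 and 0.2 ng/ml, and at 2 ng/ml tKO was lower by -1.39 ± 0.27 (adjusted p = 0.00332 by limma), the lowest difference among the 79 symbols. DMOG libraries read 120, 140 and 156 FPKM against 192, 202 and 246 FPKM with vehicle (-0.62 ± 0.13, adjusted p = 0.000469).

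Promoter sequences of 66 of the 80 genes were found in RefSeq (GRCm38.p6), taken here as the 250 bases before each gene's start. Those of a gene that was higher and a gene that was lower with both PHD loss and DMOG, Ndufv3 and Ndufa6, and of Uqcrfs1, the gene with the highest difference with DMOG, are shown 5′ to 3′ in the direction of transcription. Capitals mark matches, on either strand, to ACGTG or GCGTG, the core letters bound by HIF, to TGCGCA or the longer NRF1 motif, both from the NRF1 site, or to CCGGAAG, letters of an ETS site; the NRF1 patterns can overlap each other.
Ndufv3 (chr17:31519865-31520114, plus strand): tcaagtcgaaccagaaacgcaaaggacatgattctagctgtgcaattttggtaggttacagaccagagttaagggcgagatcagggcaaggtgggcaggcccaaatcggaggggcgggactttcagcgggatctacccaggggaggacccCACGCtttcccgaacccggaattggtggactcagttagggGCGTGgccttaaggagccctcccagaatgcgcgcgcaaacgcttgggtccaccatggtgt
Ndufa6 (chr15:82354292-82354541, minus strand): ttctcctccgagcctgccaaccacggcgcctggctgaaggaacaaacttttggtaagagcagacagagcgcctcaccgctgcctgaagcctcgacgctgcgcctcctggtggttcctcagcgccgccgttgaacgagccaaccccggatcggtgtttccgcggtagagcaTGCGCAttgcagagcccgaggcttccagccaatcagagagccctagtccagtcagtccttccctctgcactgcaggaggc
Uqcrfs1 (chr13:30545317-30545566, minus strand): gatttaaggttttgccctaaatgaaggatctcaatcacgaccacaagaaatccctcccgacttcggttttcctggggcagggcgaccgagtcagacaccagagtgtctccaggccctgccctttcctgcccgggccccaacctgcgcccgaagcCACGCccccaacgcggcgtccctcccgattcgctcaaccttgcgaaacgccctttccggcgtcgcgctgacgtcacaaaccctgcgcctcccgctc
Ndufv3 holds 2 matches to GCGTG, Uqcrfs1 holds 1 and Ndufa6 holds 1 match to TGCGCA. Either HIF core occurs before 35 of the 66 genes (53.0%) and in 38.6% of all 32851 promoters of the same length, so a match is common in any promoter. The 66 are counted by gene, with a match in any of its promoters, and 6 of them have more than 1 promoter. The shares of all are counted by promoter, so the units differ for each motif. The longer NRF1 motif occurs in 13 of the 66 (19.7%) against 3.74% of all, TGCGCA in 14 (21.2%) against 6.43%, and CCGGAAG in 12 (18.2%) against 6.91%. These are matches of letters and no measure of binding.

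Without TGF-b the genotypes differed little. Cox4i2 and Ndufv3 were higher in tKO at 0 ng/ml, none of the other 77 symbols passed, and 9.64% of all symbols did, 5.34% higher and 4.3% lower. The median difference of the 79 was 0.10, against 0.00 for all symbols, and under quantile normalization it was -0.07. No symbol passed without WT at 0 ng/ml, replicate 1, or tKO at 0 ng/ml, replicate 2, and 1 passed without either other library of that dose. At 0.2 ng/ml 10 symbols were higher in tKO and none lower, beside 9.11% of all symbols called higher and 6.38% lower (15.5% in all). Beside Cox4i2, Ndufv3 and Cox6b2 these were the complex IV genes Cox6a1 (0.69) and Cox7a2 (0.89), Ndufa1 (0.88) and Ndufa11 (0.73) of the complex I membrane arm, Uqcr10 of complex III (0.73), and Atp5j2 (0.67) and Atp5l (0.71) of the ATP synthase membrane part. This count rests on single libraries. Without tKO at 0.2 ng/ml, replicate 2, the library with the highest FPKM sum, only Cox4i2 and Ndufv3 passed, and without replicate 1 of that group 52 symbols were higher and 1 lower. Without WT at 0.2 ng/ml, replicate 1 or 2, 3 and 2 symbols passed, and without any 1 library of WT at 0 ng/ml or of either genotype at 2 ng/ml 4 or 5 did. Under quantile normalization 4 symbols were higher and 8 lower at this dose, against 8.51% and 8.36% of all symbols. With the trend over transcript length removed 7 were higher and 3 lower.

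At 2 ng/ml TGF-b 30 of the 79 symbols were lower in tKO than in WT, against 8.16% of all symbols tested, and 2 were higher, Cox4i2 and Cox6b2, against 7.82% (16% in all). The median difference was -0.58 for the 79 and -0.02 for all symbols, and 69 of the 79 had both tKO libraries below both WT libraries (87.3%, against 32.1% of all symbols tested). By complex, 14 of 35 genes of complex I were lower, none of the 4 of complex II, 2 of 9 of complex III, 6 of 14 of complex IV and 7 of 15 of complex V. The count was 6 and 9 without tKO at 2 ng/ml, replicate 2 or 1, 8 and 11 without WT at 2 ng/ml, replicate 1 or 2, and 49 without either library of tKO at 0.2 ng/ml. T cell markers summed to 2678 and 2605 FPKM in tKO and 3611 and 3350 FPKM in WT at this dose, with 4 of 9 tested markers lower and 1 higher. The dendritic cell list summed to 1006 and 1113 FPKM in tKO and 962 and 309 FPKM in WT. Of 4 tested markers 2 were higher, H2-Ab1 and Zbtb46. H2-Aa averaged 29.7 FPKM in tKO against 65.1 FPKM in WT, and Cd74 731 against 472 FPKM, and neither was called. Itgax, Flt3 and Siglech averaged at most 0.113 FPKM in either genotype at this dose. The part of other cells in the result was not tested. In bulk RNA a smaller number of cells of a type and less RNA per cell cannot be told apart.

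Summed over the subunits of all 5 complexes, tKO read 15237 and 15327 FPKM at 2 ng/ml, against 23945 and 21850 FPKM in WT. At 0 ng/ml tKO had read 23805 and 30859 FPKM, and at 0.2 ng/ml 23840 and 37609 FPKM. The 2 tKO libraries at 2 ng/ml were the lowest of the 12, and the 80 genes made up 2.85% and 2.94% of the FPKM sum there against 3.54% to 4.51% in the other 10 libraries. Complex II moved least, from 722 ± 4.98 FPKM in WT to 619 ± 11.6 FPKM in tKO (SD, n = 2), while complex IV went from 5483 ± 478 to 3348 ± 87.1 FPKM.

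**Figure D2:**
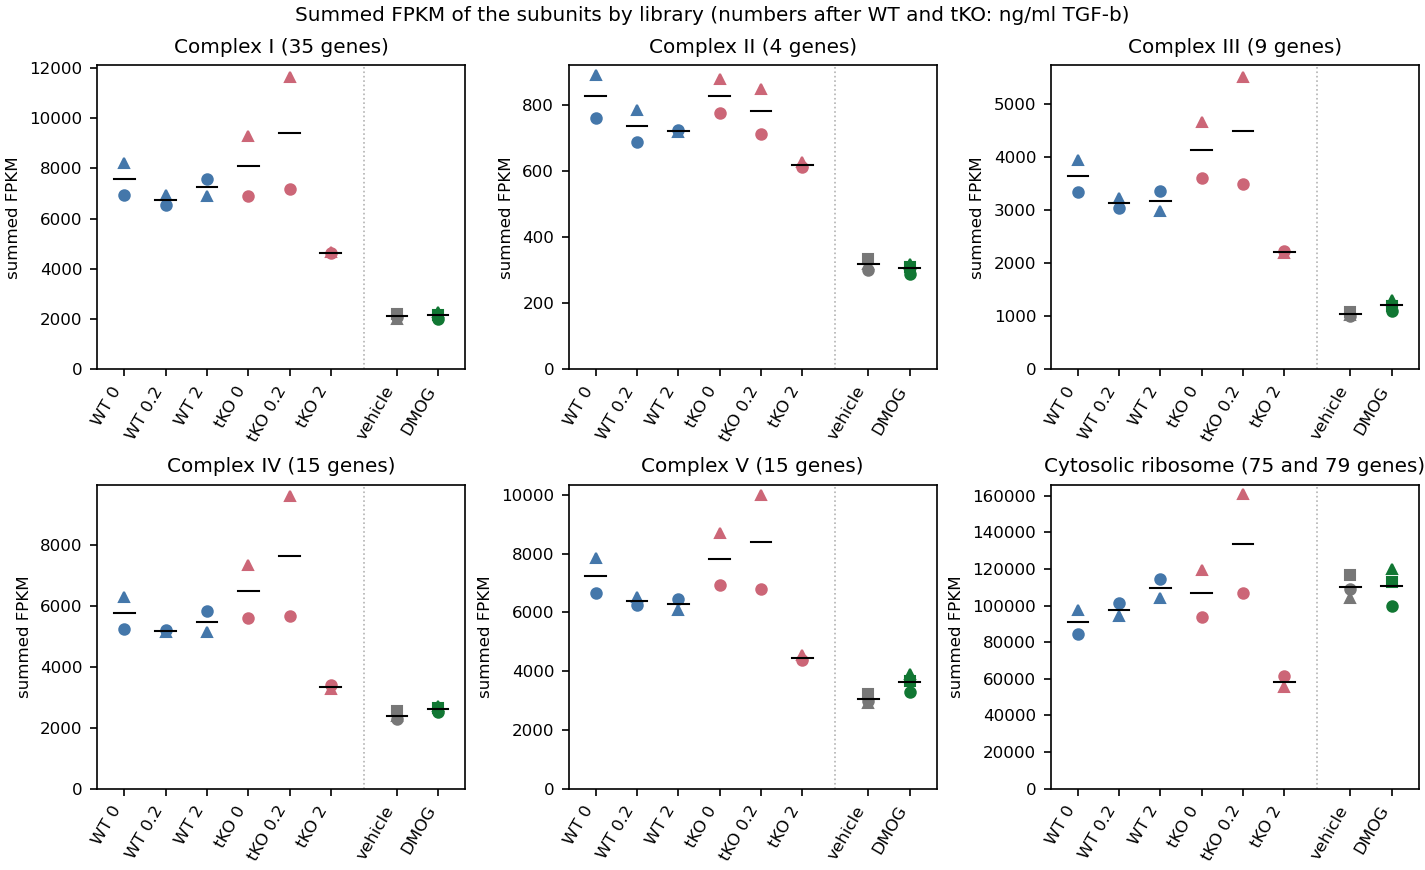
Summed FPKM of the genes of each complex, and of cytosolic ribosomal protein genes, by library; symbols are replicates and bars are means, with WT and tKO by TGF-b dose in ng/ml left of the dotted line. Each sum is lowest in tKO at 2 ng/ml among the 12 libraries of experiment 1, and tKO replicate 2 (triangles) is above replicate 1 at 0 and 0.2 ng/ml.

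Among the smallest adjusted p at 2 ng/ml, beside those of Cox4i2, Ndufa6 and Ndufa4, was that of Atp5e. Atp5e, the epsilon subunit of ATP synthase, at chr2:174286575-174289602 (mm9), read 99.4 and 88.2 FPKM in tKO against 228 and 254 FPKM in WT (-1.35 ± 0.22, adjusted p = 0.000984 by limma). The next were Ndufb11 (-0.90), Ndufa2 (-1.08), Ndufb2 (-1.18), Cox7a2l (-0.91) and Cox4i1 (-0.97), all lower with adjusted p between 0.00323 and 0.0069 by limma. Uqcrh, Ndufb5 and Ndufs8 were also lower, by -1.02, -1.06 and -0.86. Ndufa6, Atp5e, Ndufb11 and Ndufa4 passed when any 1 of the 12 libraries was left out. Of all 30 lower calls, 13 passed under every other planned setting.

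The subunits listed here for each complex fell on both sides of the threshold. In complex I, the iron-sulfur subunit Ndufs8 (-0.86) was lower at 2 ng/ml, while Ndufs1 (-0.15), Ndufs3 (-0.27), Ndufs7 (-0.53), Ndufv1 (-0.29) and Ndufv2 (-0.54) did not pass. In complex II Sdha (0.09), Sdhb (-0.42), Sdhc (-0.51) and Sdhd (-0.15) did not pass. In complex III Uqcrc1 (-0.21), Uqcrc2 (-0.27), the Rieske protein gene Uqcrfs1 (-0.16) and cytochrome c1 (Cyc1, -0.33) did not pass. In complex IV Cox5a (-0.49) and Cox5b (-0.29) did not pass either. In the catalytic part of complex V Atp5d (-0.52) and Atp5e were lower, and Atp5a1 (-0.09), Atp5b (0.11) and Atp5c1 (-0.52) did not pass. Of the 3 genes for the c ring of ATP synthase, Atp5g2 was lower (-0.81) and Atp5g1 (-0.57) and Atp5g3 (-0.47) did not pass. Among the other paralogue sets Cox8a was lower (-0.76), and Cox6a1 (-0.49), Cox6b1 (-0.50) and Cox7a2 (-0.58) did not pass. Atp5s, no subunit, was lower (-0.98), and Atp5sl was not called (-0.36).

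**Figure D3:**
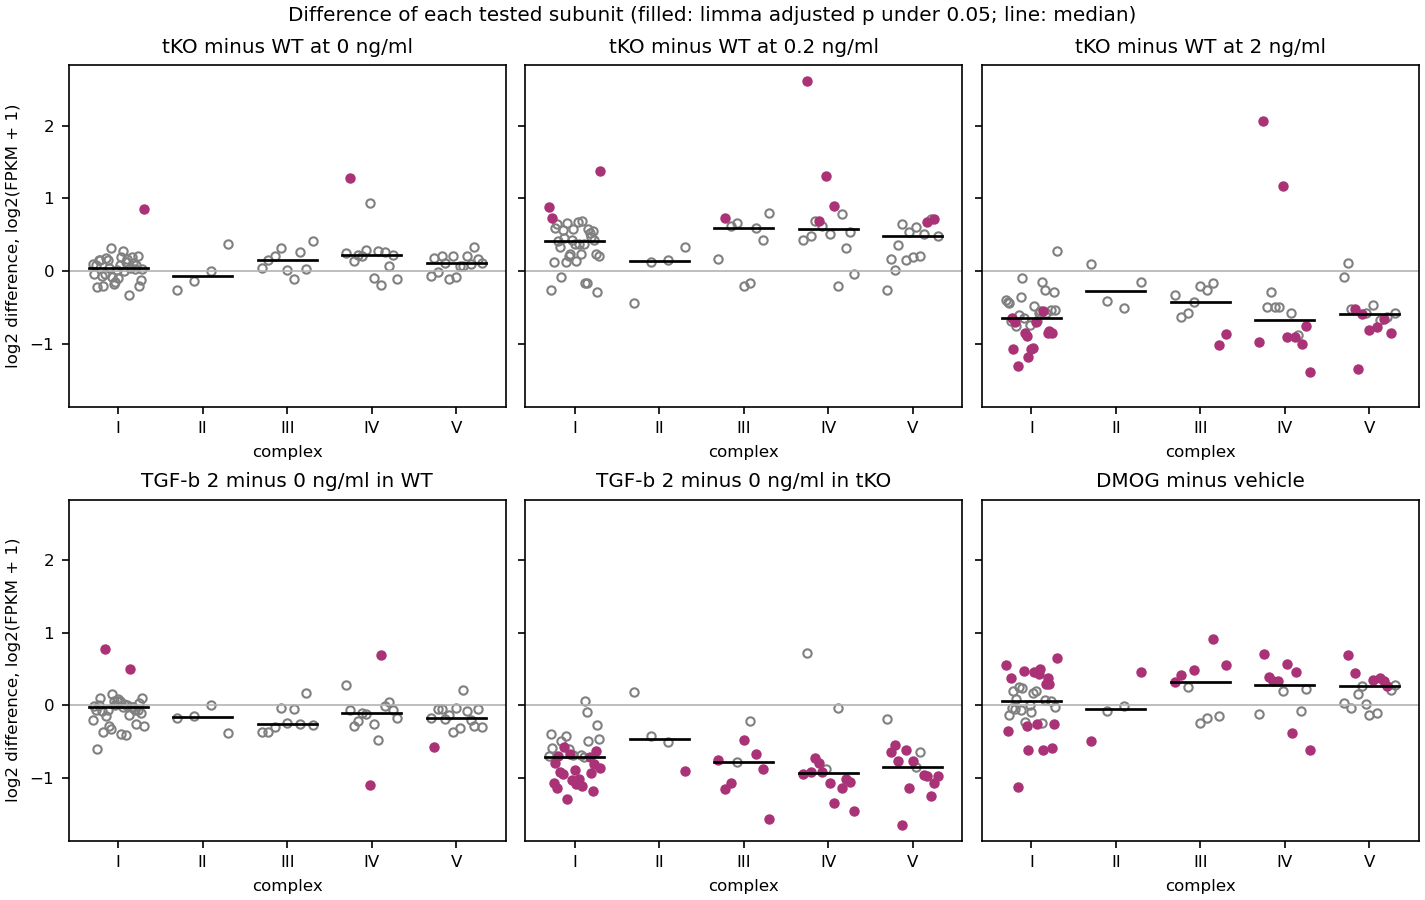
Difference of each tested subunit gene on the log2(FPKM + 1) scale by complex in 6 comparisons, filled where limma's adjusted p was under 0.05, with the median of the complex as a line. Most points lie below 0 in tKO minus WT at 2 ng/ml and in the effect of 2 ng/ml TGF-b in tKO, and on both sides of 0 with DMOG.

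The effect of TGF-b within tKO was tested next. From 0 to 2 ng/ml TGF-b 52 of 79 symbols fell in tKO and none rose, against 10.4% of all symbols that fell and 7.59% that rose (18% in all), with a median of -0.80 for the 79 and -0.01 for all symbols. Atp5e (-1.65 ± 0.22, adjusted p = 0.000317 by limma) and Uqcrq, a small subunit of complex III (-1.56 ± 0.25, adjusted p = 0.00135), led. Uqcrq read 445 and 622 FPKM in tKO at 0 ng/ml and 188 and 167 FPKM at 2 ng/ml, with no overlap. Ndufa4 (-1.46), Ndufa2 (-1.14), Ndufb7 (-1.01), Uqcr10 (-1.15), Atp5d (-0.78) and Atp5k (-1.25) also fell. Among the subunits listed above by complex Atp5b fell from 1316 and 1359 to 809 and 913 FPKM. Cyc1, Uqcrfs1, Cox5a, Cox5b, Ndufs7, Ndufs8, Sdhd, Uqcrc1 and Atp5c1 fell too. Under quantile normalization Atp5b (0.07) and Uqcrc1 (0.03) were on the other side of 0 and not called. Without tKO at 0 ng/ml, replicate 2, the count was 5, and without tKO at 2 ng/ml, replicate 1 or 2, it was 13 or 8, all of them lower, and without either library of tKO at 0.2 ng/ml it was 63. The 2 minus 0 ng/ml comparison and the genotype difference at 2 ng/ml share the tKO libraries at 2 ng/ml.

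In WT the same dose changed 5 of 79 symbols, against 15.7% of all symbols (7.79% higher and 7.91% lower). Among them Ndufa6 and Cox7a2l rose, and Atp5b (-0.57 ± 0.15, adjusted p = 0.0203 by limma) and Cox6b2 (-1.10) fell. Atp5b went from 1126 and 1241 to 785 and 804 FPKM. Leaving out replicate 1 of WT at 0 ng/ml left no call, leaving out any other library of WT at 0 or 2 ng/ml left 1, and 3 were left without either library of tKO at 2 ng/ml. The median of the 79 was -0.08, against -0.02 for all symbols. At 0.2 ng/ml no symbol passed in WT by limma, against 1.59% of all symbols (0.918% higher and 0.676% lower), and 2 had an unadjusted p under 0.05. Under quantile normalization 2, Ndufa6 and Cox7a2l, were higher, against 1.16% of all symbols. In tKO only Cox4i2 rose from 0 to 0.2 ng/ml (1.46 ± 0.35, adjusted p = 0.0437 by limma), against 2.48% of all symbols (1.7% higher and 0.782% lower). Without tKO at 0.2 ng/ml, replicate 1, 11 symbols rose and 1 fell, and without any other 1 library none passed.

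The dose effect of 2 ng/ml itself differed between the genotypes for 4 symbols, all with a lower effect in tKO: Ndufa6, Atp5e (-1.46 ± 0.31, adjusted p = 0.0245 by limma), Ndufa2 (-1.24 ± 0.30, adjusted p = 0.0427) and Cox4i1 (-1.23 ± 0.30, adjusted p = 0.0448). Of all symbols 2.97% passed, 1.55% higher and 1.43% lower. The median over the 79 was -0.71, against -0.02 for all symbols, and 41 of the 79 had an unadjusted p under 0.05. With the labelled series within each genotype as a block, 15 symbols had a lower effect in tKO. The number of the 79 called ran from 0 to 26 when 1 library was left out, with 26 and 25 without tKO at 0.2 ng/ml, replicate 2 or 1, 7 without tKO at 0 ng/ml, replicate 1, and at most 2 without any other library.

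Other short and abundant transcripts moved with the subunit genes in these comparisons. Of the 73 tested genes of cytosolic ribosomal proteins, 63 were lower in tKO at 2 ng/ml, with a median of -0.93, and 59 fell from 0 to 2 ng/ml in tKO. Their summed level was 55284 to 61452 FPKM in tKO at 2 ng/ml and 84449 to 160906 FPKM in the other 10 libraries. Mitochondrial ribosomal protein genes were lower in 13 of 72 cases at 2 ng/ml and fell in 40 of 72 from 0 to 2 ng/ml in tKO. The median transcript length of the 80 genes was 870 nt (GENCODE, longest principal transcript), against 2884 nt for all tested symbols with a length. Among genes under 1000 nt, 20 of 44 subunit genes (45.5%) and 27.7% of 570 other genes were lower in tKO at 2 ng/ml, with medians of -0.68 and -0.49. Among genes of 1000 to 2000 nt, 9 of 26 subunit genes (34.6%) and 12.7% of 2133 others were lower, with medians of -0.53 and -0.20. From 0 to 2 ng/ml in tKO the shares were 72.7% against 40.2% under 1000 nt, and 65.4% against 18.5% at 1000 to 2000 nt.

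With the trend over transcript length removed from each library, 18 symbols were lower and 3 higher in tKO at 2 ng/ml, and the median went from -0.58 to -0.19. Of all symbols, 7.19% were then called lower. For the effect of 2 ng/ml in tKO 21 symbols were then lower and 2 higher, against 8.37% and 8.94% of all symbols, with a median of -0.23. Ndufa6 (-0.68), Ndufa4 (-0.77), Cox7a2l (-0.55), Atp5e (-0.57), Cox4i1 (-0.45) and Ndufb11 (-0.46) were among the 18. In the dose effect between genotypes Cox4i1 (-0.58) and Uqcrq (-1.05) passed, and Ndufa6, Atp5e and Ndufa2 did not. The part of transcript length, library composition or RNA quality in the lower values was not otherwise tested.

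**Figure D4:**
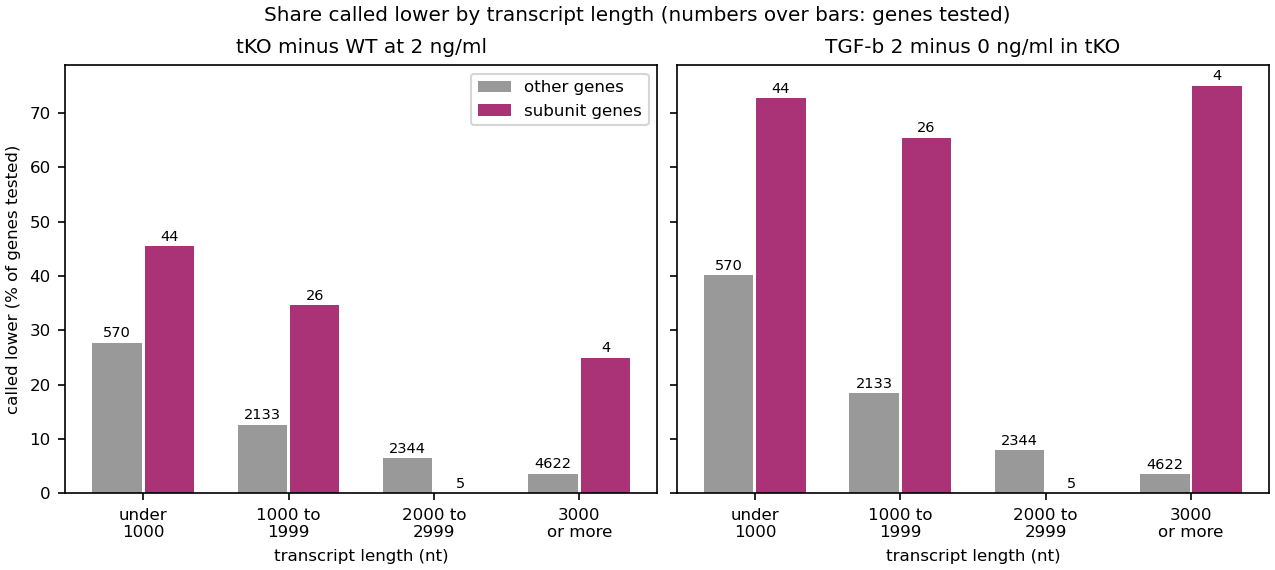
Share of genes called lower (limma adjusted p under 0.05) by transcript length in nt, for subunit genes and all other genes tested, in 2 comparisons; numbers over bars are genes tested. In both groups of genes the share is higher under 1000 nt than at 2000 to 3000 nt, and under 2000 nt it is higher for subunit genes than for other genes. Over 2000 nt there are 9 subunit genes.

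DMOG changed subunit genes in both directions. Of the 76 tested, 28 rose and 12 fell, against 27.7% and 33.2% of all 9884 symbols (60.8% in all). The median was 0.18 for the 76 and -0.03 for all symbols. The balance depends on scaling, with 32 higher and 9 lower after median-ratio scaling, and 17 higher, 21 lower and a median of -0.00 after quantile normalization. The T cell marker list was lower with DMOG in these libraries, at 1325 to 1693 FPKM against 2586 to 3010 FPKM with vehicle, with 10 of 10 tested markers lower. The dendritic cell list was higher, at 220 to 341 against 95.0 to 116 FPKM. B cell markers went from 7.65 to 12.4 FPKM with vehicle to 0.860 to 1.22 FPKM with DMOG, and myeloid markers from 10.7 to 11.6 FPKM to 2.16 to 3.74 FPKM. Their part in the subunit values was not tested.

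The counts by complex stand beside 27.7% of all symbols called higher and 33.2% called lower with DMOG. In complex III 5 of 9 genes rose and none fell, in complex IV 6 of 12 rose and 2 fell, and in complex V 6 of 15 rose and none fell. In complex I 10 of 35 rose and 8 fell, and in complex II Sdhd rose (0.45) and Sdha, the flavoprotein, fell (-0.50). Uqcrfs1, the Rieske iron-sulfur protein of complex III, at chr13:30630633-30637185 (mm9), read 69.1, 65.2 and 71.8 FPKM with vehicle and 124, 137 and 128 FPKM with DMOG. The groups were far apart, with a difference of 0.91 ± 0.11 (adjusted p = 1.17e-06 by limma). In tKO it read 292 and 365 FPKM against 249 and 297 FPKM in WT at 0 ng/ml, and it was not called at any dose.

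Atp5b rose from 391, 416 and 461 FPKM to 635, 719 and 698 FPKM with DMOG (0.70 ± 0.11, adjusted p = 3.11e-05 by limma). Atp5a1 (0.04) and Atp5c1 (-0.04), its partners in the catalytic head, did not pass. Cox5a rose from 115, 114 and 127 FPKM to 182, 204 and 199 FPKM (0.71 ± 0.11, adjusted p = 2.31e-05), and Cox5b (0.38), Cox6a1 (0.34), Cox6b1 (0.34) and Cox7a2 (0.57) rose with it in complex IV. Also among the leading increases were Ndufa1 (0.55) and Ndufc2 (0.50) of complex I and Uqcrq (0.56) of complex III. Cyc1 rose by 0.32 and Atp5g3 by 0.34, while Uqcrc1 (-0.24), Uqcrc2 (-0.18), Cox8a (0.22), Atp5g1 (0.02) and Atp5g2 (-0.14) did not pass. The 2 entries of Atp5g1 went opposite ways, from 29.2 ± 2.70 to 38.5 ± 1.35 FPKM and from 68.9 ± 3.91 to 60.9 ± 6.56 FPKM (SD, n = 3).

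In complex I the 8 decreases among 35 tested genes were a smaller share than the 33.2% of all symbols called lower with DMOG. Beside Ndufa6, Ndufs8, a core iron-sulfur subunit, fell from 63.1, 59.6 and 63.5 FPKM to 38.2, 45.3 and 39.6 FPKM (-0.59 ± 0.11, adjusted p = 0.000199 by limma), and its groups did not overlap. Ndufb2 (-0.62), Ndufa10 (-0.35), Ndufb11 (-0.29), Ndufb9 (-0.26) and Ndufv1 (-0.26) also fell. Ndufs3 (0.08), Ndufs7 (0.05), Ndufv2 (-0.02) and Ndufs1 (-0.25) did not pass, and Atp5sl fell (-0.46).

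The genotype difference at 2 ng/ml and the DMOG effect were set side by side, since they share no library and the TGF-b dose is the same. Of 76 symbols tested in both, 7 were lower in both, among them Ndufa6, Ndufa4, Ndufb2, Cox7a2l, Ndufb11 and Ndufs8. These are 58.3% of the 12 that fell with DMOG and 24.1% of the 29 lower in tKO. Over all 9192 symbols tested in both, 506 were lower in both, which are 16.8% of the 3012 that fell with DMOG and 66% of the 767 lower in tKO. Another 5, Uqcrq, Ndufs5, Ndufs6, Atp5j2 and Atp5d, were lower in tKO and rose with DMOG, where 27.7% of all symbols tested rose. The 2 symbols higher in tKO, Cox4i2 and Cox6b2, were not tested in experiment 2, and Ndufv3 did not pass at 2 ng/ml in tKO. The sign was the same for 31 of 76, and Pearson's r across the 76 genes, which are not independent replicates, was 0.33. The count of opposite calls, the count of equal signs and r were not taken over all symbols, so they are not read as traits of the subunits.

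**Figure D5:**
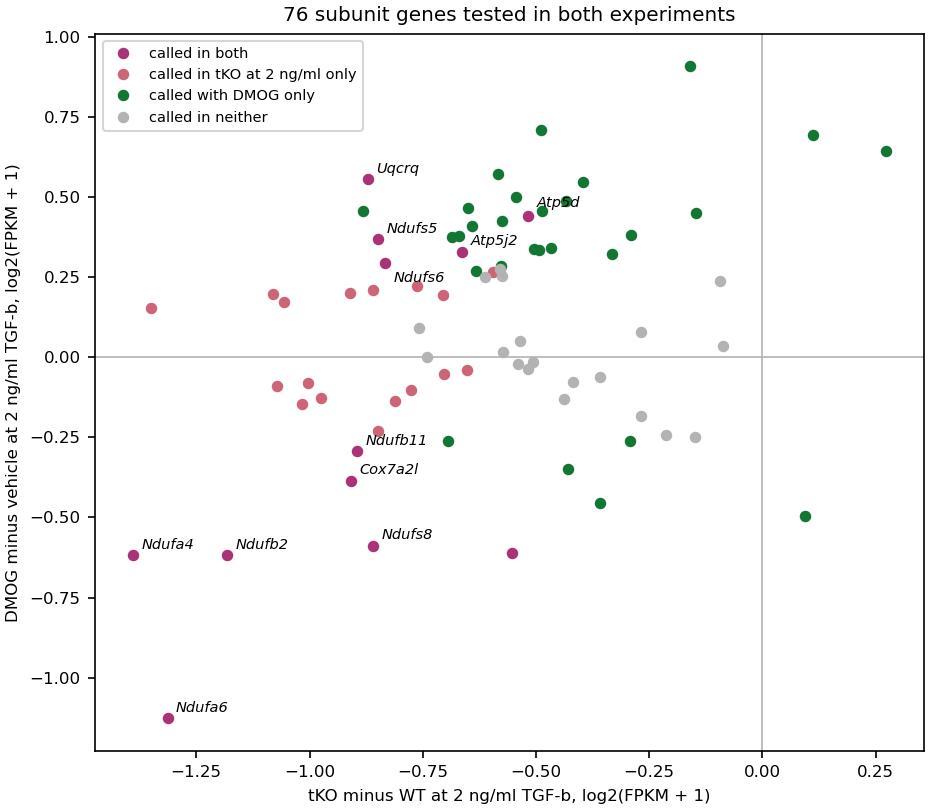
Difference of 76 subunit genes in tKO minus WT at 2 ng/ml TGF-b (horizontal) and DMOG minus vehicle (vertical), both on the log2(FPKM + 1) scale, coloured by call. The 7 genes called below 0 on both axes are led by Ndufa6 at -1.31 and -1.13, and 5 named genes are below 0 in tKO and above 0 with DMOG.

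Beside Cox4i2, 6 genes around the chain that HIF is known to act on were tested. Over doses 5 of the 6 were higher in tKO, and the same 5 were higher with DMOG. Of all symbols 13.9% were called higher over doses and 27.7% with DMOG. At 0 and 0.2 ng/ml 3 and 4 of the 6 were called higher in tKO. The 5 were Bnip3, which removes mitochondria by mitophagy, Higd1a, Mxi1, Lonp1 and Pdk1, which blocks pyruvate dehydrogenase. Bnip3 had differences of 4.03 and 4.15, Higd1a, a factor bound to complexes III and IV, of 2.34 and 1.94, Mxi1, an antagonist of Myc, of 2.07 and 2.66, Lonp1 of 0.99 and 0.74, and Pdk1 of 0.61 and 0.84. Iscu, the iron-sulfur scaffold, was not called over doses (-0.25) or with DMOG (-0.10), and was lower in tKO at 2 ng/ml (-1.03). Ndufa4l2, the paralogue of Ndufa4 that HIF is known to induce, was listed at 0 in all 6 WT libraries and in the 6 libraries of experiment 2, and read 0.436 and 0.413 FPKM in tKO at 0.2 ng/ml and 0.480 and 0.739 FPKM at 2 ng/ml. It stayed under the filter.

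The counts for the next lists stand beside 8.16% of all symbols called lower and 7.82% called higher in tKO at 2 ng/ml. With DMOG these shares were 33.2% lower and 27.7% higher. Of 34 tested factors that assemble the complexes, 7 were lower and none higher in tKO at 2 ng/ml. They were led by Sdhaf1 (-1.29), which acts on complex II, and Timmdc1 (-1.42), which acts on complex I. Cox14 (-0.87) and Surf1 (-0.85), which act on complex IV, were also lower. With DMOG 4 rose, led by the copper chaperone Cox17 (1.86), and 8 fell, with Cox10 (-1.08), Sdhaf1 (-1.05) and Surf1 (-0.75). In the TCA cycle 1 of 17 was lower at 2 ng/ml, Pdha1 (-0.69) of pyruvate dehydrogenase, and with DMOG 3 rose, led by citrate synthase (Cs, 0.61), and 3 fell, led by Pdha1 (-0.58). A further list held electron carriers and exchange proteins of the inner membrane, and the outer membrane channel Vdac1. It also held Usmg5, a protein of the ATP synthase whose symbol is outside the pattern used here. At 2 ng/ml 1 of 15 tested genes of this list was higher (Vdac1, 1.00) and 1 lower (Usmg5, -1.05). With DMOG 10 of 16 rose, with Gpd2 (1.41), Slc25a4 (0.95) and Vdac1 (0.90), and 4 fell, led by Nnt (-0.95). Of 16 regulators of mitochondrial transcription and biogenesis, Myc was higher at 2 ng/ml (1.07) and none was lower, and with DMOG 5 rose, led by Myc (1.20), and 3 fell, among them the mitochondrial RNA polymerase Polrmt (-1.20) and Polg2 (-0.90).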

How the data were processed

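RNA was amplified with a SMARTer low-input kit, per the labels' protocols, which keeps no strand, so overlapping antisense transcripts are mixed in. The authors deposited FPKM values per library. Per the submitters' processing notes, the tools were Cuffdiff, Cufflinks, TopHat and Trimmomatic and the build was mm9, with no versions. Absolute depth is unknown, no count model was fitted, and a value of 0 can be a failed estimate.

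After 18 and 291 exact duplicate entries were dropped, FPKM of entries sharing a symbol were summed, giving 22783 and 16639 symbols. Symbols with a mean of at least 1 FPKM were tested on log2(FPKM + 1) with limma 3.58.1 in R 4.3.3 (1 coefficient per group, mean-variance trend, all libraries of an experiment, two-sided, Benjamini-Hochberg over 10354 and 9884 symbols, threshold 0.05). The script was tested on simulated data. Tests were made only within a table. Motifs were searched in the 250 bases before RefSeq gene starts.

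Named genes are the called members with the smallest p in each direction (up to 8 per comparison). Also named are a fixed list of subunits for each complex, paralogous subunits and the extremes of each complex. The HIF-linked list and up to 4 genes of each other list were added. The members and lists were chosen with earlier results of these data known. Alternatives were another pseudocount, no filter, quantile and median-ratio scaling, replicate blocks, fewer groups, each library left out and, added later, transcript length, the largest entry per symbol and whole series left out. The values of 1 gene are counted in the totals but not reported here.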

Additional observations from a re-analysis of the deposited data

Results flagged for a closer look

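For 4 subunit genes the effect of 2 ng/ml TGF-b differed between tKO and WT by the test of that difference in limma, adjusted over all symbols. The difference was -1.27 for Ndufa6, -1.46 for Atp5e, -1.24 for Ndufa2 and -1.23 for Cox4i1. None of the 4 kept its call in every run that left out 1 library, though each kept it in some. With the transcript length trend removed only Cox4i1 kept it.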

How the results depend on the processing

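Counts of subunit genes called moved by more than 1.5 times under these settings, where the cause was not tested unless fewer libraries or more symbols explain it. Over doses the count of 7 became 28 with quantile normalization, 23 with the length trend removed, 19 and 27 without series tKO1 and tKO2, and 3 without either WT series. It was 1 instead of 2 at 0 ng/ml with no filter on low values. At 0.2 ng/ml the count of 10 became 6 with a pseudocount of 0.1, 2 with no filter, 20 with the replicate block and 2 with only the groups compared. At 2 ng/ml the count of 32 became 15 with no filter, 55 with only the groups compared and 21 with the length trend removed. For 2 ng/ml TGF-b in WT it was 3 instead of 5 with no filter, and in tKO 22 with no filter, 30 with quantile normalization and 23 with the length trend removed, instead of 52. For 0.2 ng/ml TGF-b it was 2 with quantile normalization and 1 with the length trend removed instead of 0 in WT, and 0 instead of 1 in tKO with a pseudocount of 0.1, quantile normalization, only the groups compared or the length trend removed. The 4 differing dose effects became 1 with no filter, 8 with quantile normalization, 8 with the replicate block, 15 with the block by series within genotype, 13 with only the groups compared and 2 with the length trend removed.

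Leaving out 1 library at a time gave 5 to 20 calls over doses, 0 to 2 at 0 ng/ml, 2 to 53 at 0.2 ng/ml, 6 to 49 at 2 ng/ml, 0 in all runs for 0.2 ng/ml in WT, 0 to 5 for 2 ng/ml in WT, 0 to 12 and 5 to 63 for 0.2 and 2 ng/ml in tKO, 0 to 26 for the differing dose effects and 31 to 43 with DMOG. A group left with 1 library was assumed to vary like the others. To see whether libraries vary together, the group mean of each gene was subtracted and the remaining deviations were correlated. These are not correlations of expression levels. Deviations of same-numbered libraries correlated at -0.106 to 0.416 in experiment 1 and -0.194 to 0.443 in experiment 2. Across genotypes such libraries share only a number. Deviations of libraries of 1 labelled series within a genotype correlated at 0.11 to 0.416 in tKO and 0.057 to 0.186 in WT. The labels do not say what a series is. The replicate block moved no other count by over 1.5 times. Of the calls above, 5 in the effect of 2 ng/ml TGF-b in tKO changed sign and lost their call, Atp5b (0.07) and Uqcrc1 (0.03) with quantile normalization and Cox6a1 (0.01), Ndufa3 (0.16) and Ndufa8 (0.01) with the length trend removed. Depth is unknown, and 2 libraries per group limit each value of experiment 1.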
